A study of Rattus norvegicus with 18 samples.

Results

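Rat primary hepatocytes, the parenchymal cells of the liver in short-term culture, were exposed to 4 compounds that are labelled only DDMB, DDEB, CDMB and CDEB, and 52 genes for proteins that hepatocytes secrete into blood plasma were followed. The members were listed by symbol in 4 classes, namely constitutive carriers and apolipoproteins, coagulation and fibrinolysis genes, acute phase genes and complement genes. A probe was taken as a member's when the accession of its transcript, without version, carried that symbol in the reference gene table. For 50 of the 52 members such a probe was found among 21574 genes tested, while no probe was matched to F5 or C5. These 50 comprise 12 constitutive, 15 coagulation, 10 acute phase and 13 complement genes, and each of them lay well above background on all 18 arrays, so that none was lost to the filter on dim probes.

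All groups consisted of cryopreserved hepatocytes from male Sprague Dawley rats, precultured for 24 h and exposed for another 24 h, and each sample was hybridised alone to 1 Agilent array. The cultures formed 6 groups of 3. VC_1 and VC_2 were exposed to DMSO, the solvent, and the other 4 groups to a compound at 300 µM, a single dose and time. The series used 2 lots of chips, so that DDEB had VC_2 as its control and the other 3 compounds had VC_1. The VC_1 and DDMB arrays shared slide 1, VC_2 and replicates 1 and 2 of DDEB shared slide 2, replicate 3 of DDEB lay on slide 3, and CDMB and CDEB lay on slide 4. For CDMB and CDEB, compound and slide therefore cannot be told apart. The labels do not say whether the cultures of a group came from different animals, and the p-values then measure only how far these cultures differ, which may be technical.

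Hepatocytes release albumin and transport proteins into plasma. They raise or lower plasma proteins during the acute phase response, which interleukin-6 and interleukin-1 set off after injury or infection. Constitutive is a class name only here, and the members of that class were not taken as unchanging in this response. The coagulation factors circulate as inactive precursors that activate one another by proteolysis, ending with the cleavage of fibrinogen by thrombin. The complement system is another proteolytic cascade. In its classical pathway the proteases C1r and C1s sit on the recognition protein C1q, in its lectin pathway the proteases Masp1 and Masp2 sit on mannose-binding lectin, and both pathways cleave C4 and C2 and lead to C3 and to the membrane attack complex.

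Signal is given as log2 of the processed intensity relative to the 75th percentile of its array, so that a value of 0 equals that percentile and a step of 1 is a doubling. Levels of different genes come from different probes and are not ranked. In bulk RNA of this kind, fewer hepatocytes and less RNA per hepatocyte cannot be told apart. The 18 hepatocyte markers outside the member list were well above background on all arrays. Of 13 matched macrophage markers, Cd163, Vsig4, Ptprc, Csf1r, Cd5l and C1qc were above background on no array, and of 12 matched endothelial markers Lyve1, Tek, Oit3, Tie1 and Erg were on none. Tyrobp, Lyz2, Cd68, Vwf, Cdh5, Col1a2 and Dcn were above background on all 18 arrays.

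In DMSO cells of the first lot the constitutive class had mean signals between 5.39 and 8.91, the coagulation class between -1.24 and 8.68, the acute phase class between 2.23 and 9.27, and the complement class between 0.64 and 7.11. Many members thus lay in the brightest part of the arrays. The highest processed intensity of any member was 458629, for the acid glycoprotein gene Orm1, and no probe spot was flagged as saturated. A narrower response of spots in that range was not tested. Between the lots the DMSO means differed by a median of 0.01, from -0.44 for Procr to 0.76 for the thyroid hormone carrier gene Ttr (VC_2 minus VC_1). These differences belong to the chips as well as to the cultures, and no change is computed across lots.

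The 3 DMSO arrays of a lot were not alike for these genes. In VC_1 replicate 3 gave the lowest of the 3 signals for 46 of the 50 members, against 46.9% of all genes. In VC_2 replicate 3 was lowest for 46 of 50, against 45.8%. The 75th percentile taken off was 654 on VC_1 replicate 3, against 543 and 565 on replicates 1 and 2. For VC_2 these were 644, against 542 and 546. The part of this scaling in the low signals was not tested. The median SD of a member was 0.215 in VC_1 and 0.218 in VC_2, where the median over all genes was 0.148 and 0.141. The SDs of the members in VC_1 ran from 0.028 for C1r to 0.88 for Serpind1.

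Serpind1, which encodes the thrombin inhibitor heparin cofactor II, measured 0.08, -0.36 and -1.61 in VC_1 and 0.08, -0.12 and -1.39 in VC_2. Plg, the precursor of the clot-dissolving protease plasmin, measured 6.13, 5.94 and 4.63 and 6.11, 5.93 and 4.56. In both genes the third DMSO culture of each lot stood more than 1 log2 unit below the other two. The same held for Apoa2, an apolipoprotein of high density lipoprotein, with 5.96, 5.67 and 4.55 in VC_1 and 5.93, 5.63 and 4.49 in VC_2, and for A2m, the broad protease inhibitor that is a major acute phase protein of the rat, with 7.53, 7.27 and 6.24 and 7.71, 7.41 and 6.21. C9, which forms the ring of the membrane attack complex, measured 3.78, 3.31 and 2.57 in VC_1 and 3.76, 3.36 and 2.60 in VC_2, the third culture again being the lowest. C6, an earlier component of that complex, measured 1.60, 1.64 and 0.84 and 1.52, 1.57 and 0.71. Rbp4, the retinol carrier, varied less, with 8.34, 8.30 and 7.98 and 9.05, 9.04 and 8.51. Lcn2, an iron-scavenging acute phase protein, ran the other way, with 3.59, 3.29 and 4.02 in VC_1 and 3.29, 3.00 and 3.75 in VC_2, the third culture being the highest.

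The deviations of the members on an array from their group mean were nearly the same on the same-numbered DMSO arrays of both lots. Across the 50 members the correlation was 0.97 for replicate 1, 0.96 for replicate 2 and 0.98 for replicate 3. Across all 21574 genes it was 0.63, 0.47 and 0.81. Arrays of different number could also correlate over the members. Replicate 1 of VC_1 had 0.74 with replicate 2 of VC_2, and replicate 2 of VC_1 had 0.69 with replicate 1 of VC_2. Over all genes these were 0.35 and 0.37. Genes are not independent replicates, so these are descriptions with no p-value, and the deviations of 3 arrays in a group sum to 0. The labels do not say whether the same DMSO cultures were hybridised on both lots. If they were, the 18 arrays hold fewer than 18 separate cultures. The comparisons with VC_1 were therefore also fitted on the 12 arrays of the first lot alone. The pairs of compounds below were not refitted on that lot. The hepatocyte markers outside the list moved along, with a mean deviation from their overall mean of -0.60 in VC_1 replicate 3 and -0.65 in VC_2 replicate 3, against 0.02 to 0.20 on the other DMSO arrays.

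**Figure D1:**
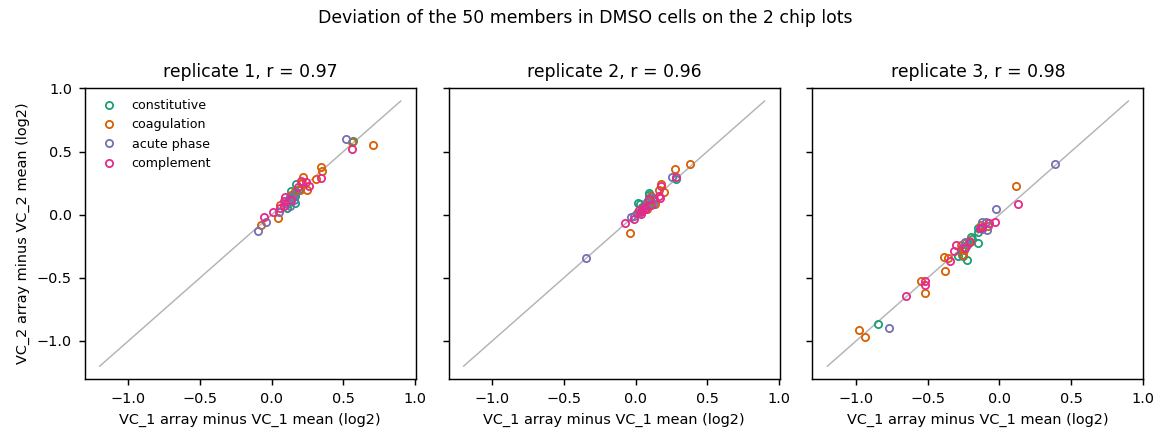
Each point is 1 of the 50 members, placed by its log2 deviation from the VC_1 mean on a VC_1 array (horizontal axis) and from the VC_2 mean on the same-numbered VC_2 array (vertical axis), coloured by class, with the line of equality in grey. Points follow the line in all 3 panels, with r = 0.97, 0.96 and 0.98, and most members lie below 0 on both replicate 3 arrays.

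The DDMB and DDEB cultures of a group also differed among themselves, and those of CDMB and CDEB less so. The median deviation of the members from their mean over the arrays of both lots, to be read within a lot only, was 0.06, -0.41 and -0.23 on DDMB replicates 1 to 3, and 0.13, -0.01 and -0.09 on those of DDEB. It lay between 0.07 and 0.15 on the CDMB arrays and between 0.09 and 0.16 on the CDEB arrays. The 75th percentile taken off was 634 on DDMB replicate 2, against 528 and 585 on replicates 1 and 3. On DDEB replicate 3 it was 430, against 497 and 523 on replicates 1 and 2. The median SD of a member was 0.072 in CDMB and 0.065 in CDEB, compared with 0.218 in DDMB and 0.149 in DDEB. Over all genes the median SD was 0.095 in CDMB, 0.074 in CDEB, 0.136 in DDMB and 0.188 in DDEB. In CDMB and CDEB no member had an SD over 0.5, whereas 10 did in DDMB and 6 in DDEB. Of all genes, 3.3% had such an SD in CDMB, 2.4% in CDEB, 7.6% in DDMB and 14.0% in DDEB. Plg in CDMB measured 6.17, 6.18 and 6.21 and in CDEB 6.18, 6.20 and 6.15, so that all 6 cultures lay above the highest DMSO culture of VC_1.

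**Figure D2:**
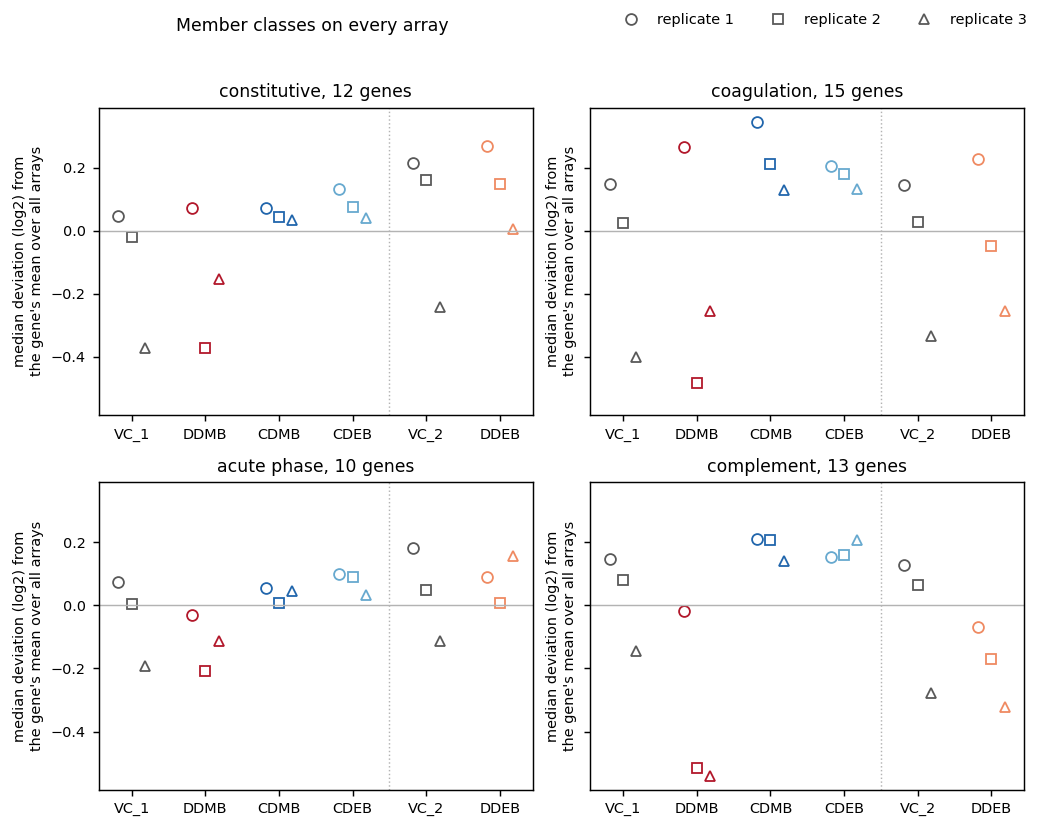
For each class, the median log2 deviation of its members from their own mean over the 18 arrays of both lots is drawn per array, by group on the horizontal axis, with symbols for replicates 1 to 3 and a dotted line between the chip lots. VC_1 replicate 3 (-0.40 in the coagulation class), VC_2 replicate 3 and DDMB replicate 2 (-0.48) lie low, and the 3 DDMB arrays lie at -0.02, -0.52 and -0.54 in the complement class.

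With DDMB, 3 proteases that start the complement cascade fell and the receptor for activated protein C rose. C1s and C1r, the paired proteases of the classical pathway, had log2 changes of -0.62 ± 0.12 and -0.54 ± 0.11, which is 1.54-fold and 1.45-fold lower. Masp1, the lectin pathway protease, had a change of -0.78 ± 0.16, or 1.72-fold lower. Procr, which encodes the endothelial protein C receptor that presents protein C for activation, was 1.7-fold higher (0.76 ± 0.12, log2 ± SE, n = 3). The limma adjusted p-values over all genes were 0.0102 for Procr, 0.0318 for C1s, 0.0363 for C1r and 0.043 for Masp1. These 4 of 50 members were called where 0.556% of all genes were, and by direction 1 member was higher (0.227% of all genes) and 3 were lower (0.329%).

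Procr measured -0.22, -0.67 and -0.53 with DDMB and -1.31, -1.28 and -1.12 in VC_1. C1s measured 3.14, 2.71 and 2.70 against 3.56, 3.52 and 3.34, and C1r 3.67, 3.41 and 3.27 against 3.99, 4.01 and 3.96. In all 3 genes the groups were apart, with DDMB replicate 1 the closest to DMSO for C1s and C1r and the farthest for Procr. Masp1 measured 0.11, -0.06 and -0.07 against 0.96, 0.94 and 0.43, and its groups were apart as well, VC_1 replicate 3 being the nearest DMSO culture. Arrays of DDMB and VC_1 did not overlap for 6 of the 50 members and for 14.2% of all genes. The other 2 were C8a, a chain of the membrane attack complex (2.91, 3.04 and 2.92 against 3.14, 3.12 and 3.32), and Masp2, the protease that cleaves C4 and C2 in the lectin pathway (2.70, 2.54 and 2.67 against 2.89, 2.79 and 2.73), with limma adjusted p = 0.455 and 0.562.

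These calls rested on few cultures. Without VC_1 replicate 3 there were 3 calls among the members, where 0.371% of all genes were called. Procr kept its call there (0.0259), as did C1s (0.0439) and Masp1 (change of -0.95, adjusted p = 0.0182), and C1r did not (0.0848). Without VC_1 replicate 1 or 2 none of the 4 was called in limma, Procr at adjusted p = 0.0612 and 0.0647 and the others at 0.133 to 0.220. Of all genes 53 and 40 were called there, against 120 in the main fit. Without DDMB replicate 2 or 3 only Procr was called (0.0103 and 0.0469), where 74 and 39 of all genes were. Fitted on the 12 arrays of the first lot, Procr (0.0225) and Masp1 (0.0391) were called and C1s and C1r were not (both 0.084). That fit called 90 of all genes. Fitted on the 6 arrays of VC_1 and DDMB alone, none of the 4 was called (0.403 to 0.511), and neither was any of the 21574 genes. The calls thus rest on a spread shared over the groups.

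**Figure D3:**
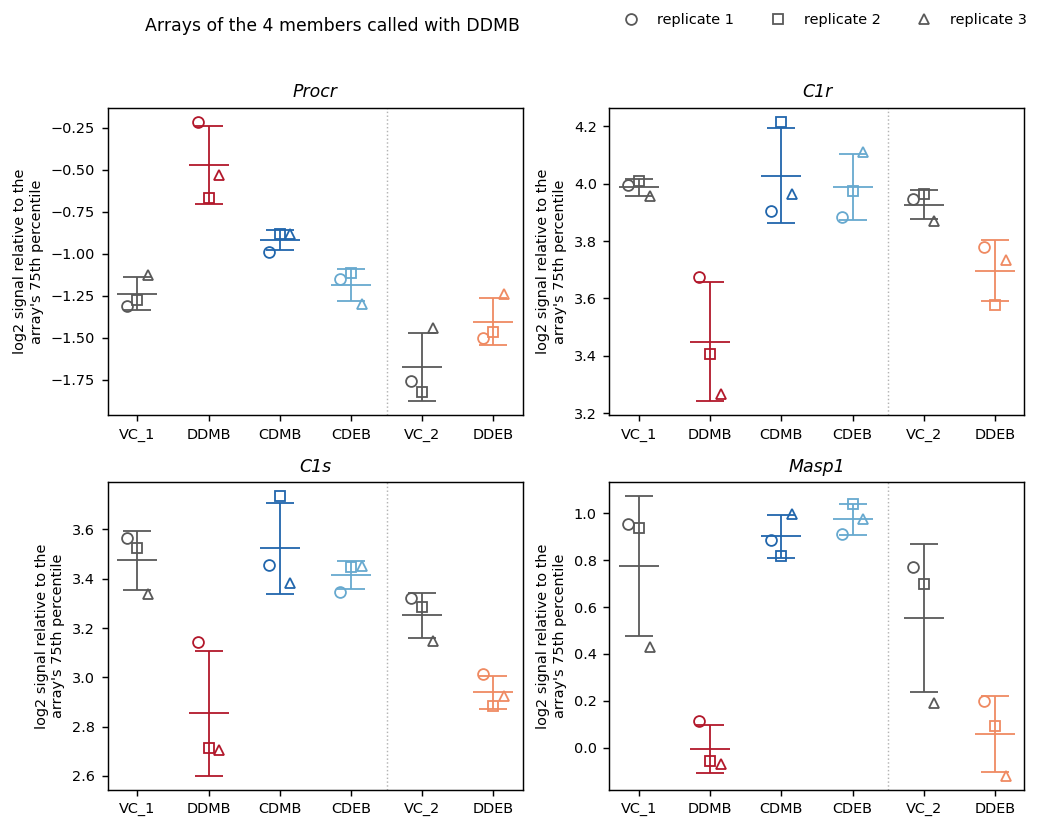
Each of the 4 panels shows 1 gene, with the log2 signal relative to the 75th percentile of the array on the vertical axis and the 6 groups on the horizontal axis. Symbols are the 3 cultures of a group, long bars are means, whiskers are SD, and the dotted line parts the chip lots. The DDMB cultures of Procr (-0.67 to -0.22) lie above VC_1 (-1.31 to -1.12), those of C1r, C1s and Masp1 lie below it, and CDMB and CDEB overlap VC_1 for C1r, C1s and Masp1.

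C1r and C1s are neighbouring genes in the reference annotation (RefSeq, GRCr8). The 250 bases before the start of C1r, Masp1 and Procr are shown because these are called members with an entry in the RefSeq promoter table, in which C1s was not found. They come from the plus strand at chr4:159098763-159099012 for C1r, chr11:90839472-90839721 for Masp1 and chr3:164714477-164714726 for Procr, all in GRCr8. Capitals mark the letters TTGCNNAA on either strand, a short form of the site bound by C/EBP factors, which act in liver and acute phase transcription.
C1r: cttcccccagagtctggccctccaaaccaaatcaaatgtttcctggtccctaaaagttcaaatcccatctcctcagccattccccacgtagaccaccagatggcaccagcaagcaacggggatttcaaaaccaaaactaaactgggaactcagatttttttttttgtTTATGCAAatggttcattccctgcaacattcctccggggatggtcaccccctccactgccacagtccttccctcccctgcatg
Masp1: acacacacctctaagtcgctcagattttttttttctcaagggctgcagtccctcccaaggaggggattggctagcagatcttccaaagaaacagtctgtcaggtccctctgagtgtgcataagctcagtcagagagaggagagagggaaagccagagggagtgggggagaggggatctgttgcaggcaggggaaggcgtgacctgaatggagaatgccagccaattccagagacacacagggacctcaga
Procr: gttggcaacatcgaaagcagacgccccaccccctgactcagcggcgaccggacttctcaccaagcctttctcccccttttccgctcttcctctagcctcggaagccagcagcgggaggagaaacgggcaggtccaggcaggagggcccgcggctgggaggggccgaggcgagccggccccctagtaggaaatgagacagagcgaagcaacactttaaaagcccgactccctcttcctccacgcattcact
The C1r stretch holds 1 such match, at position 168 counted from its 5′ end, on the strand opposite to the one shown, and the other two hold none. Of the 39 members with an entry in the table, 19 had at least 1 match, as did 9.2% of 27457 promoter stretches of the same length. Matches to TTCNNNGAA, a short form of the site of STAT factors, stood in 6 of the 39 (Fga, Fgb, C8a, Apoh, Itih4 and F9) and in 7.52% of all. A match to CAAAGTCCA, a form of the site of HNF4, stood in none of the 39 and in 0.331% of all. No match overlapped another in the printed stretches, and a match of letters is a description only.

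Most members lay lower with DDMB than with DMSO, by little. Of the 50, 9 had a change above 0, against 53.5% of all genes, and the median change was -0.10, against 0.01 over all genes. Without VC_1 replicate 3 the median was -0.21 and 3 changes lay above 0, and without DDMB replicate 1 it was -0.20. It shrank to -0.0022 without DDMB replicate 2, to -0.02 without VC_1 replicate 1 and to -0.06 without VC_1 replicate 2. By class the median was -0.28 for complement (1 of 13 above 0), -0.13 for coagulation (1 of 15), -0.08 for acute phase (3 of 10) and -0.01 for the constitutive genes (4 of 12), the last of which turned to 0.006 when arrays were scaled to their median. Without VC_1 replicate 3 these were -0.55 (0 of 13), -0.23 (1 of 15), -0.08 (1 of 10) and -0.14 (1 of 12).

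Among the complement genes that were not called, C6 had the largest change, -0.91 ± 0.30, with 0.95, 0.12 and 0.29 against 1.60, 1.64 and 0.84 and limma adjusted p = 0.263. Only DDMB replicate 1 lay above the lowest DMSO culture. C4bpa, which encodes a regulator that binds C4b, had a change of -0.53 ± 0.19 (adjusted p = 0.315), and C3, the central component, -0.19 ± 0.14, or -0.34 without VC_1 replicate 3. Cfi, the protease that inactivates C3b and C4b, was the 1 complement gene above 0, at 0.08 ± 0.11, and lay at -0.02 without that culture.

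In the acute phase class A2m had a change of -0.43 ± 0.50, and its DDMB cultures at 7.58, 5.81 and 6.37 spanned the whole range of VC_1. The ferroxidase gene Cp measured 4.11, 3.50 and 3.42 with DDMB against 4.13, 3.97 and 3.91, a change of -0.32 ± 0.15 with DDMB replicate 1 inside the DMSO range. In the coagulation class Serpind1, at -0.21, -1.80 and -1.13, had -0.42 ± 0.52, and its groups overlapped. Apoa2, at 6.03, 4.45 and 5.06, and Ahsg, the calcium-binding fetuin A, at 7.80, 7.51 and 7.63 against 7.93, 7.87 and 7.68, had the largest changes of the constitutive class, -0.21 ± 0.45 and -0.18 ± 0.09. Leaving out VC_1 replicate 3, the changes of A2m, Serpind1 and Apoa2 were -0.81, -0.91 and -0.64. None of these 5 was called in limma (adjusted p = 0.51 to 0.955). Albumin changed by -0.02 with a 95% interval from -0.33 to 0.29, and Ttr by -0.0043 with an interval from -0.21 to 0.20.

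Values that moved beside the complement genes are given as measured. The macrophage markers summed to 3.43 to 3.78 in VC_1 and 3.73 to 3.91 with DDMB on the log2 scale, with 0 of 5 measured genes called and a median change of -0.19. Of these 5, only Lyz2 lay higher with DDMB (0.38 ± 0.09), while Cd68 (-0.59), Clec4f (-0.84), Tyrobp (-0.19) and C1qb (-0.0057) lay lower. Cd68 measured 2.08, -1.18 and 0.04 with DDMB and 2.10, 1.57 and -0.95 in VC_1, and its groups overlapped. Clec4f, at -6.15, -5.35 and -5.21 against -4.76, -4.37 and -5.05, lay near background and was above it on 16 of the 18 arrays. The stellate cell and fibroblast markers summed to 3.02 to 3.64 and 2.53 to 3.02, with 0 of 9 called and a median of 0.11. For endothelial cells, which are known to express Procr, the marker sums were 3.04 to 3.33 and 3.05 to 3.24, with 0 of 5 called and a median of -0.09, or -0.18 without VC_1 replicate 3. Of the 18 hepatocyte markers outside the list, Tat (0.68), Ass1 (0.65) and Hpd (0.39), enzymes of amino acid and urea metabolism, rose and the male-specific cytochrome gene Cyp2c11 fell (-1.14). The call of Hpd was lost without VC_1 replicate 3 (limma adjusted p = 0.0822). The part of these other cells in the member changes was not tested.

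No member was called with CDMB or CDEB. In limma 0 of 50 passed for CDMB, where 0.0417% of all genes did, and 0 of 50 for CDEB, where 0.134% did. An unadjusted p under 0.05 was found for 2 members with each compound. Over all 21574 genes it was found for 2863 with CDMB and 2870 with CDEB. Most members lay slightly above VC_1. With CDMB 46 of 50 changes were above 0 (52.6% of all genes) with a median of 0.14, and with CDEB 47 of 50 (51.9%) with a median of 0.17. The medians over all genes were 0.01 and 0.01. The signs of both medians held under the 4 other scalings tried, with 0.12 and 0.08 for CDEB after normexp and quantile normalization. Without VC_1 replicate 3 the medians were 0.03, with 32 changes above 0, and 0.05, with 36. Both comparisons share the VC_1 cultures, and their values are given side by side only.

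Plg had changes of 0.62 ± 0.48 with CDMB and 0.61 ± 0.48 with CDEB, and 0.15 and 0.14 without VC_1 replicate 3. Serpind1 had 0.70 ± 0.52 with CDMB (0.29, -0.01 and -0.06) and 0.41 ± 0.52 with CDEB (-0.10, -0.27 and -0.28). Without the third DMSO culture its changes were 0.21 and -0.08, the latter with the sign turned. Apoa2, with 6.00, 5.99 and 5.86 for CDMB and 5.99, 5.92 and 5.84 for CDEB, had changes of 0.56 and 0.52, and 0.13 and 0.10 without that culture. These 3 genes were among those in which VC_1 replicate 3 stood lowest.

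F10, the factor that forms thrombin from prothrombin, measured 5.10, 5.05 and 4.96 with CDEB against 4.90, 4.73 and 4.03, and all 3 lay above all DMSO cultures, with a change of 0.48 ± 0.30, or 0.22 without VC_1 replicate 3. C9 measured 3.82, 3.73 and 3.58 with CDMB and 3.65, 3.62 and 3.52 with CDEB, a change of 0.49 and 0.38. Cfb, the protease of the alternative pathway, measured 4.82, 5.15 and 4.82 and 4.81, 4.74 and 4.92 against 4.91, 4.74 and 4.04, with changes of 0.37 and 0.26. In C9 and Cfb the groups overlapped VC_1. A2m, at 7.45, 7.35 and 7.24 and 7.46, 7.46 and 7.27, had 0.33 and 0.38. With VC_1 replicate 3 left out, the 2 changes were 0.16 and 0.05 for C9, 0.11 and 0.0007 for Cfb, and -0.05 and -0.0051 for A2m. Both signs of A2m thus turned without that 1 culture.

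The iron carrier gene Tf stood apart from VC_1 (8.96, 8.85 and 8.68) in both groups, at 9.15, 9.10 and 9.10 with CDMB and 9.25, 8.97 and 8.98 with CDEB. Its changes of 0.29 ± 0.11 and 0.24 ± 0.11 were not called (limma adjusted p = 0.298 and 0.363). Apoc3, an inhibitor of lipoprotein lipase, measured 9.21, 9.15 and 9.11 with CDEB against 9.10, 9.01 and 8.62, just apart. Lcn2 had its change of -0.24 with CDMB (3.52, 3.28 and 3.39), with 1 culture just below the lowest DMSO culture, and of -0.05 without VC_1 replicate 3. Crp, the C-reactive protein gene, lay below VC_1 (4.86, 4.80 and 4.64) on all 3 CDEB arrays (4.61, 4.56 and 4.53), at -0.20 ± 0.10 with limma adjusted p = 0.394. In all, arrays did not overlap for 10 members with CDMB (25.5% of all genes) and 13 with CDEB (29.3%), shares of 50 below those of all genes.

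None of the genes called with DDMB passed the test with these compounds. C1r had 0.04 with CDMB and 0.0016 with CDEB, C1s 0.05 and -0.06, and Masp1 0.13 and 0.20, those of Masp1 becoming -0.04 and 0.03 without VC_1 replicate 3. The 95% intervals of C1r ran from -0.18 to 0.27 with CDMB and from -0.22 to 0.23 with CDEB. Procr measured -0.99, -0.88 and -0.89 with CDMB, apart from VC_1, at 0.32 ± 0.12 (adjusted p = 0.308), and -1.15, -1.11 and -1.30 with CDEB, at 0.05 ± 0.12. The ratio of a dim to a bright spike-in control, a measure of the hybridisation, came to between 1.21% and 1.32% for CDMB and CDEB, and for VC_1 to 1.98% to 2.04%. Its part in the shifts was not tested.

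**Figure D4:**
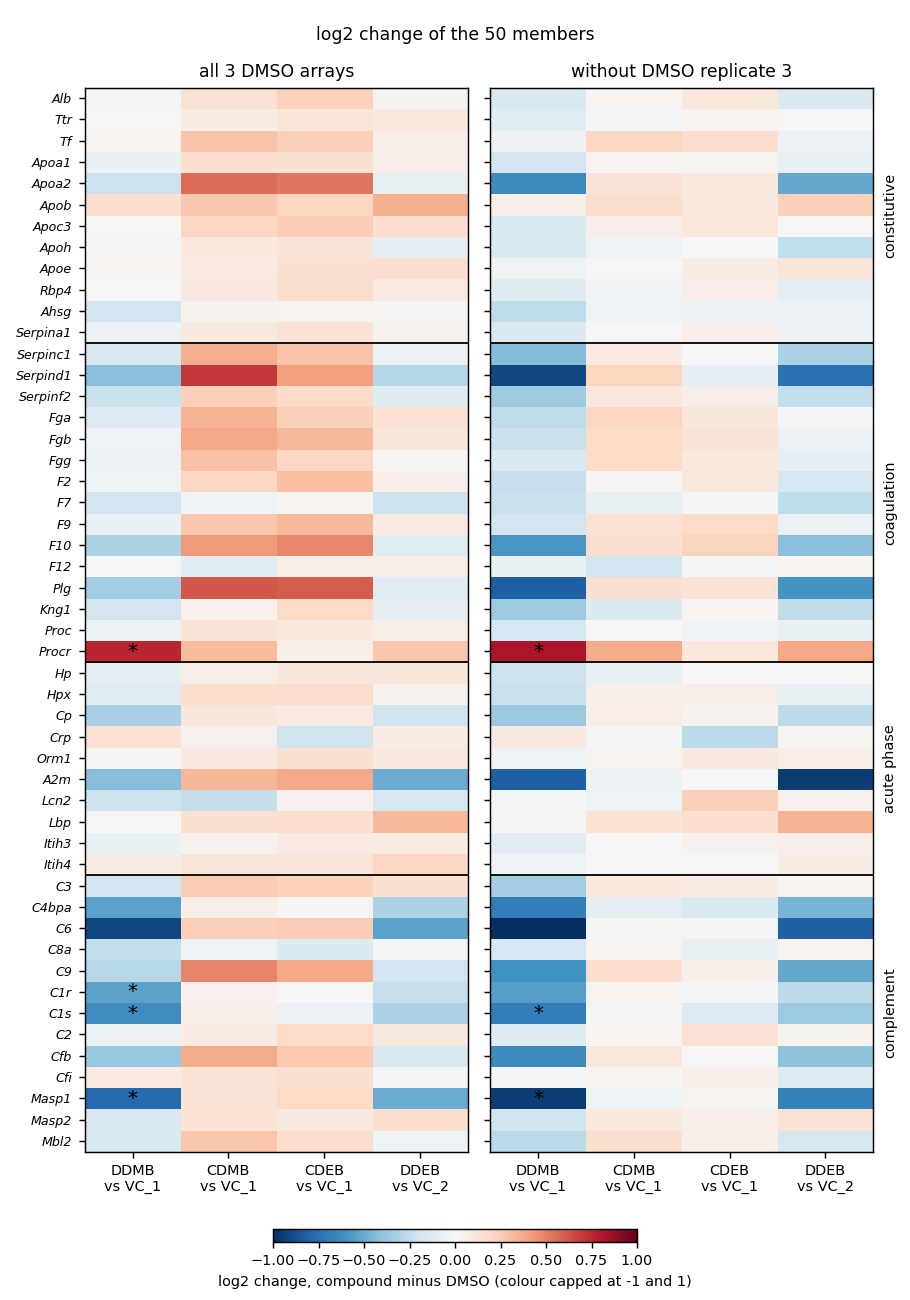
Rows are the 50 members in their 4 classes and columns the 4 comparisons, coloured by log2 change of compound minus DMSO (blue lower, red higher, capped at -1 and 1), with all DMSO arrays on the left and without replicate 3 of the DMSO group compared on the right. Stars mark limma adjusted p below 0.05 over all genes. The CDMB and CDEB columns pale on the right, where their medians go from 0.14 to 0.03 and from 0.17 to 0.05, and the DDMB column darkens, from -0.10 to -0.21.

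With DDEB 0 of 50 members were called in limma, while 0.987% of all genes were. An unadjusted p under 0.05 was found for 8 members and for 3278 of all 21574 genes. The members were split, with 28 of 50 changes above 0 (53.6% of all genes) and a median of 0.03, against 0.02 over all genes, and the median turned to -0.01 after normexp background correction and -0.04 after quantile normalization. Without VC_2 replicate 3 it was -0.08 and 16 changes lay above 0, and without VC_2 replicates 1 and 2 in turn it was 0.12 and 0.08. Without DDEB replicates 1 and 3 in turn it was 0.0055 and 0.07. By class the median was 0.05 for the constitutive genes (10 of 12 above 0), 0.08 for acute phase (7 of 10), 0.02 for coagulation (8 of 15) and -0.14 for complement (3 of 13). After quantile normalization the first 3 turned to -0.02, -0.01 and -0.05, and that of coagulation was -0.03 after normexp, while complement stayed below 0 under every scaling tried (-0.17 to -0.14). Without VC_2 replicate 3 the class medians were -0.06 (3 of 12 above 0), 0.03 (7 of 10), -0.17 (2 of 15) and -0.26 (4 of 13), so that those of the constitutive and coagulation genes turned.

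The 3 proteases named above lay lower here as well without passing the test. Masp1 measured 0.20, 0.09 and -0.12 with DDEB against 0.77, 0.70 and 0.19, a change of -0.50 ± 0.16 with limma adjusted p = 0.156, and 1 DDEB culture lay just above the lowest DMSO culture. C1s measured 3.01, 2.88 and 2.92 against 3.32, 3.28 and 3.15 and C1r 3.78, 3.58 and 3.73 against 3.95, 3.96 and 3.87, with changes of -0.31 ± 0.12 and -0.23 ± 0.11 (adjusted p = 0.227 and 0.321), and the groups of both were apart. C6, at 1.10, 0.97 and 0.12, had -0.54 ± 0.30 and overlapped VC_2. Left out from both lots, replicate 3 of DMSO gave a call for Masp1 with DDEB, at -0.68 and adjusted p = 0.0195.

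Lbp, which encodes the lipopolysaccharide-binding protein, measured 2.44, 2.38 and 2.70 with DDEB against 2.05, 2.27 and 2.22, a change of 0.33 ± 0.10 with adjusted p = 0.15 in limma. Apob, the protein that holds very low density lipoprotein, measured 6.33, 6.42 and 6.15 against 6.08, 6.04 and 5.70 (0.36 ± 0.13), and Apoe, a ligand of lipoprotein receptors, 9.38, 9.37 and 9.54 against 9.31, 9.31 and 9.15 (0.17 ± 0.08). The groups of these 3 genes did not overlap, as for 7 members in all and 16.5% of all genes. Procr measured -1.50, -1.47 and -1.24 against -1.75, -1.82 and -1.44, a change of 0.27 ± 0.12, with an overlap. A2m, at 7.36, 6.67 and 5.80, and Serpind1, at -0.18, -0.42 and -1.70, varied widely between cultures, with changes of -0.50 ± 0.50 and -0.29 ± 0.52. Without VC_2 replicate 3 these were -0.95 and -0.74, and those of Apob and C6 0.24 and -0.81. The same spike-in ratio measured 1.09% to 1.66% on DDEB arrays and 1.73% to 1.83% on those of VC_2, and hepatocyte markers outside the list were low on DDEB replicate 3 (-0.51). Neither was tested as a part of these changes.

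The compounds were compared at their common dose and time in 6 pairs, with p-values adjusted over all genes and all 6 pairs. Between DDMB and CDMB 3 members were called, where 0.371% of all genes were. Masp1 was lower with DDMB by -0.91 ± 0.16, C1s by -0.67 ± 0.12 and C1r by -0.58 ± 0.11 (limma adjusted p = 0.0342, 0.0386 and 0.0451). Between DDMB and CDEB 2 members were called (0.672% of all genes), with Masp1 lower by -0.98 ± 0.16 and Procr higher by 0.71 ± 0.12 (adjusted p = 0.0262 and 0.0333). C1r and C1s differed by -0.54 and -0.56 in that pair and missed the threshold (adjusted p = 0.0619 and 0.0856). These pairs lay on different slides, so compound and slide cannot be told apart in them. Each of the 5 calls was lost without DDMB replicate 2 or 3 or without any 1 culture of the other compound (adjusted p up to 0.188), and that of Procr also without DDMB replicate 1. Without DDMB replicate 1 the counts were 4 and 4.

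CDMB and CDEB shared a slide, and 0 of 50 members were called between them by limma, where 0.0603% of all genes were and 3 members had an unadjusted p under 0.05. Their largest difference was that of Serpind1, 0.29 ± 0.52. That error is pooled over all groups, and the SD of Serpind1 was 0.19 in CDMB and 0.10 in CDEB. In the other groups it was 0.80 to 0.88. For Masp1 the difference was -0.07 with a 95% interval from -0.41 to 0.26, and for C1s 0.11 with an interval from -0.14 to 0.36. Procr differed by 0.27, from 0.01 to 0.53, with adjusted p = 0.489.

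DDEB was set against the other compounds through the difference of their effects, each over its own DMSO group. In limma 0 members were called against DDMB (0.0278% of all genes), CDMB (0.0185%) or CDEB (0.0232%), and 3, 2 and 1 had an unadjusted p under 0.05. For Masp1 the effect of DDEB minus that of DDMB was 0.28, with a 95% interval from -0.19 to 0.76, and for C1s it was 0.31, from -0.05 to 0.67. For Procr the difference was -0.49, from -0.86 to -0.12, with adjusted p = 0.324. Against CDEB, Masp1 differed by -0.70, from -1.17 to -0.22, with adjusted p = 0.265. The intervals are per gene and not adjusted for the number of comparisons.

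Fga, Fgb and Fgg encode the 3 chains of fibrinogen, the clot-forming protein that is also an acute phase protein. Fgb measured 8.45, 7.42 and 7.56 with DDMB, 8.39, 8.23 and 8.04 with CDMB and 8.18, 8.19 and 8.12 with CDEB against 8.15, 7.92 and 7.46, and 8.20, 7.93 and 7.74 with DDEB against 8.13, 7.90 and 7.51. For all 3 chains the DDMB cultures spanned more than the range of VC_1, with replicate 1 the highest, at 7.75, 6.64 and 6.82 for Fga and 8.08, 7.25 and 7.34 for Fgg. The changes of Fga, Fgb and Fgg with DDMB were -0.13, -0.03 and -0.05, and those with CDMB 0.35, 0.38 and 0.29. When VC_1 replicate 3 was left out they were -0.25, -0.22 and -0.15 with DDMB, and 0.22, 0.18 and 0.19 with CDMB. None of the chains was called with any compound in limma (adjusted p from 0.508 to 0.988).

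With the fibrinogen chains, 28 members were neither called nor among the largest changes or SDs of their class. Their changes ran from -0.53 to 0.08 with DDMB, from -0.12 to 0.38 with CDMB, from -0.13 to 0.32 with CDEB and from -0.32 to 0.21 with DDEB. The lowest limma adjusted p among them was 0.281, for F7, which starts the extrinsic pathway of coagulation, with DDEB (-0.21 ± 0.09). F7 measured 0.15, 0.27 and 0.46 there against 0.58, 0.52 and 0.41, so that 1 DDEB culture lay inside the DMSO range. The constitutive genes among the 28, which include Alb, Apoa1 and Serpina1, the elastase inhibitor gene, lay between -0.06 and -0.0043 with DDMB. Hp and Hpx, which encode the scavengers haptoglobin and hemopexin, lay within -0.11 to 0.07 with the acute phase genes of that set, and Serpinc1 (antithrombin), Serpinf2 (plasmin inhibitor), F2, F12 and Proc within -0.22 to -0.0022 with those of coagulation. The complement genes ran from -0.53 for C4bpa to 0.08 for Cfi, with Mbl2, the mannose-binding lectin, between them.

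Several members were read by more than 1 probe, and the probes mostly moved together. For 15 members there were 18 further, dimmer probes, and in DDMB 16 of them had the same sign as the brightest one, 15 with CDMB, 16 with CDEB and 15 with DDEB. The second probe of C1s gave -0.60 with DDMB beside -0.62. The 2 further probes of Masp1 gave -0.42 and -0.64 beside -0.78, and its mean over probes, at -0.61, was not called (adjusted p = 0.0875). For Masp2 the probes differed, at -0.16, -0.01 and -0.28 with DDMB and 0.09, 0.47 and 0.01 with CDEB. The kininogen gene Kng1 has close paralogs in the rat whose transcripts its probes may also bind, and is reported as uncertain.

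Related genes outside the member list were counted from fixed lists. In limma 0 of 10 further measured complement genes were called with any compound, nor any of 14 acute phase genes, 17 coagulation genes, 17 genes of interleukin-6 and interleukin-1 signalling, 13 liver transcription factors or 19 genes of the secretory pathway. Of these 360 tests 45 had an unadjusted p under 0.05. Over all 21574 genes 2136 had such a p with DDMB, 2863 with CDMB, 2870 with CDEB and 3278 with DDEB. No excess is read from the 45. The medians of the complement list were -0.23 with DDMB, 0.17 with CDMB, 0.20 with CDEB and -0.03 with DDEB, and -0.23, 0.01, -0.01 and -0.16 without replicate 3 of the DMSO group. Its largest change with DDMB was that of C4bpb, the other chain of the C4b-binding protein (-0.83 ± 0.51, or -1.28 without VC_1 replicate 3). In the acute phase list Steap4, a metalloreductase gene, had -0.97 with DDMB and -0.89 with DDEB. Its mean was also lower with CDMB (1.31) and CDEB (1.85) than in VC_1 (2.08). Replicate 3 was the highest DMSO culture of Steap4 in both lots. It measured 2.63 in VC_1, against 1.74 and 1.87, and 2.44 in VC_2, against 1.74 and 1.78. Among signalling genes Socs3, the feedback inhibitor of the pathway, had -0.35 with DDMB, -0.64 with CDMB, -0.40 with CDEB and -0.0033 with DDEB, and the first 3 became -0.04, -0.32 and -0.08 without VC_1 replicate 3. Of 21 further plasma carriers only Selenop was called, the selenium carrier of plasma, which fell with DDMB (-0.66, adjusted p = 0.000777) and with DDEB (-0.40, adjusted p = 0.0204) in limma.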

How the data were processed

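Per the file headers, the 18 scanner files were written by Agilent Feature Extraction (version 10.7.1.1), 1 for each array, and give a processed intensity per spot, that is, Cy3 brightness less background. The authors also deposited tables of signal on a linear scale in 2 sets, 1 for each chip lot, with scaling not given in the sources used here. These served as an alternative. Spots per array numbered 62976, and the number of arrays limits the precision.

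From the log2 intensity, averaged over unflagged spots of a probe, each array's 75th percentile was taken off. Of 45163 probes, 25306 were kept, each well above background throughout the 3 arrays of some group, and the brightest probe stood for a gene. The 6 groups on the 18 arrays entered a single limma model (limma 3.58.1, R 4.3.3, residual degrees of freedom 12), with Benjamini-Hochberg adjustment over all 21574 genes. A gene was called at an adjusted p below 0.05. Where the text says adjusted p, it is limma's. Errors are standard errors of the fit. The fit was also run on simulated data with independent noise and the same spread of a gene in every group. These data held no shift shared by the genes of an array and no unequal spread of groups. The fit was therefore not tested under those conditions.

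Members, classes and lists were chosen with earlier results of these data known. Named with every array's value are members called in any comparison or pair, in each comparison the 2 of each class with the largest change, and the 2 of each class with the largest SD in DMSO cells. Other members were named after their values were seen.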

Additional observations from a re-analysis of the deposited data

How the results depend on the processing

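Median member changes ran from -0.21 to -0.0022 with DDMB over all alternatives, 0.03 to 0.20 with CDMB, 0.05 to 0.24 with CDEB and -0.08 to 0.12 with DDEB, the ends of each range coming from arrays left out in turn. The 4 members called with DDMB became 2 with the deposited tables, 1 without the filter on dim probes, 0 in a fit of the 2 groups compared and 2 on the first chip lot alone, and 0 to 5 with 1 array left out. The first chip lot alone, and both DMSO groups without array 3, which called 1 member with DDEB, were alternatives chosen after seeing the data. The 3 members called between DDMB and CDMB became 0 without the filter, and 0 to 4 with 1 array left out. The 2 between DDMB and CDEB became 1 after normexp and 0 without the filter, and 0 to 4 with 1 array left out. Of the other member changes, 258 of 3378 recomputed values changed sign and 3 became calls, namely Ahsg (quantile, DDMB), Cp (without DDMB replicate 1) and Masp1 (DDEB). An alternative meant to hold slide as a fixed block left out DDEB replicate 3 but fitted no slide term. That alternative thus repeats the fit without this array. Counts over all genes ran from 0 to 245 with DDMB, 0 to 39 with CDMB, 0 to 93 with CDEB and 0 to 436 with DDEB. The 0 with DDMB came from the fit of the 2 groups compared.

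The replicate numbers were not taken as pairs, since the correlation of same-numbered compound and DMSO arrays ran from -0.42 to 0.56. With the replicate block, 4 members were called with DDMB and 0 with each other compound, 2 between DDMB and CDMB and 2 between DDMB and CDEB. Of the 12 compound arrays, 7 correlated best with the DMSO array of their own number. Normexp ran on the median spot signal, the mean not being used here.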
